A study of Homo sapiens with 14 samples.

Results

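A set of 10 genes for mediators that endothelial cells release or make during inflammation was followed by name: CXCL1, CXCL2, CXCL3, IL8 (now CXCL8), CCL2, CSF3, IL6, IL1B, PTGS2 and LIF. Of the 10, 9 were listed in at least 1 of the authors' 2 comparison tables, which together list 12202 genes, and 6 were listed in both. CXCL2, IL6 and IL1B were found in the siRNA table alone, and LIF was found in neither, so that only its 3′ UTR sequence is described here.

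The cells were teloHAEC, an immortalised line of human aortic endothelium expressing telomerase, in 14 bulk RNA libraries. In the siRNA comparison, 4 libraries were made after reverse transfection of siRNA to CALCRL, which encodes the calcitonin receptor-like receptor, and 4 from cells given scrambled siRNA by the same reagent, with RNA taken after 24 hours. In the deletion comparison, 3 libraries came from cells electroporated with Cas9 ribonucleoproteins whose guides flank an enhancer controlling CALCRL. The other 3 came from cells electroporated with Cas9 and a guide to HPRT, so both groups carried Cas9, and RNA was taken 2 days later. CALCRL itself was at 34.0% of its control under siRNA and 36.2% after the deletion. The replicates are numbered libraries, and nothing in the labels says whether they came from separate cultures, so the p-values measure the spread between libraries, which may be technical. Each table gives a mean normalised count over all libraries, a log2 fold change, its standard error (SE) and p-values, and no value per library. The values by group given here are means implied by the deposited mean and fold change.

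Levels are given as CPM, a mean normalised count scaled to a table sum of 1000000. Of 15 endothelial markers, 14 were listed in each table, with a summed level of 3480 CPM (scrambled), 3450 (CALCRL siRNA), 3190 (CRISPR control) and 3830 (deletion). MCAM alone stood at 1030 CPM in the CRISPR control and 1800 after the deletion, and CDH5 at 267 and 98.7. After the deletion 8 of the 14 had a log2 fold change above 0 and 6 below, so the higher sum does not describe the markers as a set. Of 14 leukocyte markers, CD68 alone was listed, at 1.36 to 9.27 CPM over the 4 groups. Of 12 smooth muscle and fibroblast markers, ACTA2 and TAGLN were listed, with summed levels from 39.6 to 92.1 CPM. KRT8, KRT18 and KRT19 were listed among 7 epithelial markers, with summed levels of 1000 and 895 CPM in the siRNA arm and 783 and 1380 in the deletion arm. Within these lists the deletion table called CDH5 and KDR lower and MCAM and KRT18 higher, and the siRNA table called EGFL7 lower. The authors' deposited tables gave -1.44 (SE 0.35) for CDH5, -1.05 (SE 0.31) for KDR, 0.80 (SE 0.24) for MCAM and 1.13 (SE 0.30) for KRT18 after the deletion, and -0.46 (SE 0.11) for EGFL7 under siRNA. Their part in the results on cytokines was not tested. In bulk libraries, fewer cells making a transcript and less transcript per cell cannot be told apart.

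Chemokines of the CXC type with the ELR motif (CXCL1, CXCL2, CXCL3 and IL8) attract neutrophils through the receptors CXCR1 and CXCR2, and CCL2 attracts monocytes through CCR2. CSF3 (granulocyte colony-stimulating factor), IL6, IL1B and LIF are cytokines, and PTGS2 encodes cyclooxygenase-2, the inducible enzyme of prostaglandin synthesis. In endothelium these genes are typically induced by interleukin-1, tumour necrosis factor or bacterial products through NF-kB and AP-1, and their messengers are short-lived because of AU-rich elements in the 3′ UTR. The receptor encoded by CALCRL binds adrenomedullin or CGRP together with accessory proteins and signals mainly through cyclic AMP.

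Most of the called genes were higher under siRNA, and all of those called after the deletion were lower. In the authors' deposited table for siRNA, 5 of the 9 listed genes had an adjusted p-value under 0.05 by DESeq2, of which CSF3, IL1B, CXCL1 and CXCL3 were higher and PTGS2 was lower. Of all genes tested there, 3.46% were called, 1.05% higher and 2.42% lower. Of the 6 genes listed for the deletion, 3 were called by the authors' deposited table: CXCL1, IL8 and CCL2, all lower. There 15.8% of all genes were called, 7.4% higher and 8.44% lower. The median log2 fold change of the listed genes was 0.30 under siRNA and -1.35 after the deletion, and the median of all genes was 0.00 in both tables. None of these calls held when the deposited statistics were read against a Student t distribution with 6 or 4 degrees of freedom. There 6 and 3 listed genes stayed under an unadjusted p of 0.05, as did 774 of 11261 and 1646 of 11830 genes. Dividing the statistics by their robust SD over all genes left 3 calls under siRNA (CSF3, IL1B and CXCL1) and 0 after the deletion. Over all genes it left 262 and 0 calls. After the deletion CXCL1, IL8 and CCL2 then stayed under an unadjusted p of 0.05, as did 534 of 11830 genes.

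**Figure D1:**
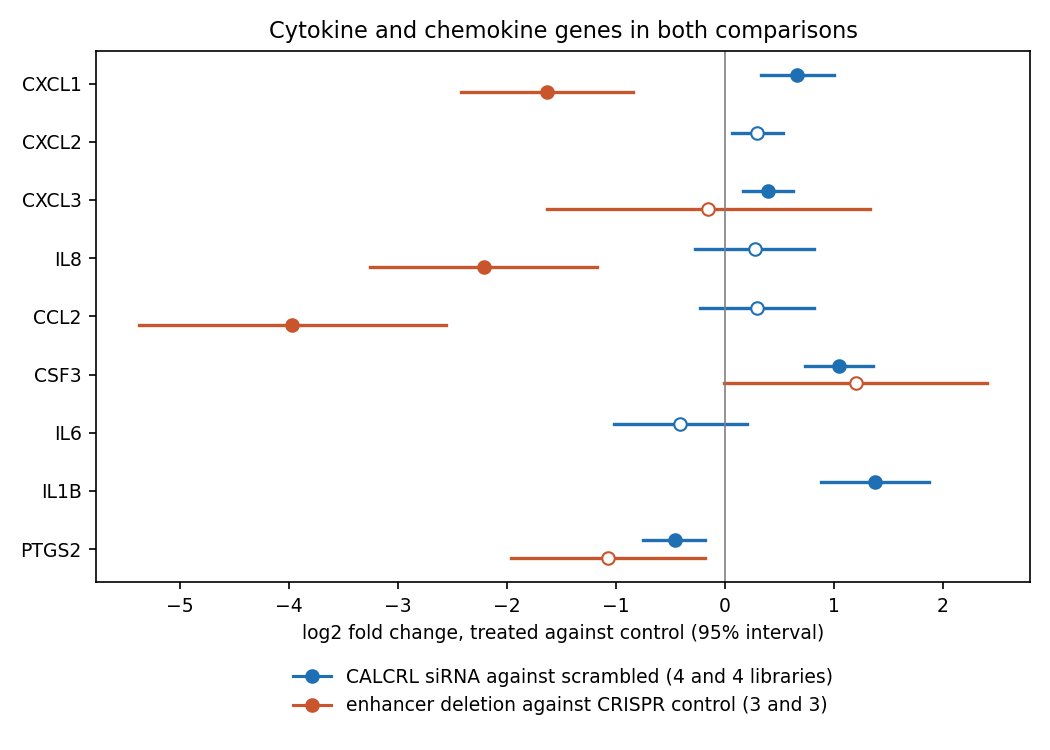
Log2 fold change (x axis) of each listed gene in the siRNA comparison (blue) and the deletion comparison (orange), with 95% intervals from the deposited standard errors. Filled points have an adjusted p-value under 0.05. CXCL1 lies above 0 under siRNA and below 0 after the deletion, and CSF3 lies above 0 in both, though its deletion interval starts at -0.01.

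CXCL1, CXCL2 and CXCL3 are close relatives that lie with IL8 in a cluster of chemokine genes on chromosome 4, where CXCL3 and CXCL2 are next to each other. CXCL1 and CXCL3 both rose under siRNA, whereas CXCL1 and IL8 fell after the deletion. The promoters printed are the 5, of 7 available, that hold the word marked in capitals. Among them CXCL2 and IL6 were not called under siRNA and not listed for the deletion. IL1B and PTGS2, called under siRNA, lack the word and are not printed. Each line holds the 100 bases before the transcription start in RefSeq (GRCh38.p14), 5′ to 3′ on the gene's strand, with capitals marking the word GGANTTTCC, a form of the NF-kB site (N is any base). The windows are chr4:73869293-73869392 on the plus strand for CXCL1, chr4:74099196-74099295 on the minus strand for CXCL2 and chr4:74038690-74038789 on the minus strand for CXCL3. For IL8 and IL6 they are chr4:73740469-73740568 and chr7:22727100-22727199, both on the plus strand.
CXCL1: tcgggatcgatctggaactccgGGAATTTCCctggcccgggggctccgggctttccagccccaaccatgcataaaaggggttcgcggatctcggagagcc
CXCL2: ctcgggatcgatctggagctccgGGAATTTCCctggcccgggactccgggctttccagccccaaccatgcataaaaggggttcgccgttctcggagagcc
CXCL3: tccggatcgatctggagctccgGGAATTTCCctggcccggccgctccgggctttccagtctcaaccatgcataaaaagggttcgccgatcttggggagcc
IL8: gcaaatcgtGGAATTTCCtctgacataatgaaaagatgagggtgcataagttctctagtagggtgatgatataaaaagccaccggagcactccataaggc
IL6: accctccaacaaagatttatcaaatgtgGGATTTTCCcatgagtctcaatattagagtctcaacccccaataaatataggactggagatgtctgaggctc

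The word begins 78 bases before the start in CXCL1 and CXCL3, 77 in CXCL2, 91 in IL8 and 72 in IL6. Aligned over this window, CXCL1 was 94.1% identical to CXCL2 and 90.0% to CXCL3, but 45.3% to IL8. Searched on both strands of the 250 bases before the start, GGANTTTCC was found in 5 of the 7 members in the promoter table (not in IL1B or PTGS2), against 1.45% of 35116 promoters. The word was chosen after these promoters had been read. The AP-1 word TGANTCA was found in IL8 alone of the 7 (6.57% of all promoters), the cyclic AMP response word TGACGTCA in none (1.65%), and the heat shock word GAANNTTC in IL1B and PTGS2 (5.78%). A match describes the letters in the window and not binding. Shorter or variant forms of these sites were not searched, so the lack of a match covers only the word given.

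CXCL1 was the most abundant gene of the set in the siRNA arm, with an implied mean of 1227.3 normalised counts in scrambled cells and 1942.2 in CALCRL siRNA cells. The authors' deposited table gave it a log2 fold change of 0.66 (SE 0.17), with a DESeq2 adjusted p-value of 0.00565. This is 1.58 times the control, with a 95% interval from 1.25 to 2.0. After the deletion CXCL1 went the other way, from an implied 182.1 in the control to 58.8. There the authors' deposited table gave it a log2 fold change of -1.63 (SE 0.40) and a DESeq2 adjusted p-value of 0.00193, or 32.3% of the control (interval 18.7% to 55.9%).

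CXCL1 was the only member called in both tables. Of the 47 genes called in both, 10 were higher under siRNA and lower after the deletion, CXCL1 among them. The 3 genes nearest to it in the pair of log2 fold changes, among the other 46 and over these 2 comparisons, were INO80C, ADAM19 and IAH1. The authors' deposited tables gave INO80C 0.50 (SE 0.13) under siRNA and -1.59 (SE 0.34) after the deletion, a distance of 0.17 from CXCL1. For ADAM19 they gave 0.48 and -1.33 (distance 0.35), and for IAH1 0.51 and -1.96 (distance 0.36).

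CXCL3 was also higher under siRNA, with implied means of 490.5 in scrambled and 647.8 in CALCRL siRNA cells. Its log2 fold change in the authors' deposited table was 0.40 (SE 0.12), with a DESeq2 adjusted p-value of 0.0225. That call was lost when the statistics were divided by their robust SD (adjusted p-value 0.0727). After the deletion CXCL3 had a mean of only 24.0 normalised counts and implied group means of 25.2 and 22.7. The authors' deposited table placed it there at -0.15 (SE 0.75), so its interval, from 32.4% to 251% of the control, spans both a fall like that of CXCL1 and a rise. CXCL3 turned to 0.10 when the trend on GC content was removed.

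CXCL2 had implied means of 259.0 and 317.9 in the siRNA arm. Its log2 fold change of 0.30 (SE 0.12) in the authors' deposited table had an unadjusted p-value of 0.0116 and a DESeq2 adjusted p-value of 0.183, and did not pass. The 95% interval of CXCL2, from 1.05 to 1.44 times the control, overlapped those of CXCL1 and CXCL3.

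IL8, a neutrophil attractant made and stored by endothelial cells, was abundant in the siRNA arm, with implied means of 1125.6 and 1362.2. The authors' deposited table gave it 0.28 (SE 0.28) under siRNA, which did not pass the test, with a 95% interval from 83.1% to 176% of the control. Its SE was 2.76 times the median SE of genes with a similar mean count. After the deletion the implied mean was 28.0, against 129.9 in the control. There IL8 fell in the authors' deposited table, at -2.21 (SE 0.53) and a DESeq2 adjusted p-value of 0.00138, which is 21.5% of the control (interval 10.4% to 44.4%).

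CCL2, a monocyte attractant encoded on chromosome 17, showed the largest change of the set. After the deletion its implied mean was 7.21 normalised counts, against 113.0 in the control. The authors' deposited table gave CCL2 a log2 fold change of -3.97 (SE 0.72) and a DESeq2 adjusted p-value of 6.89e-06, which is 6.38% of the control (interval 2.41% to 16.9%). Counting CCL2, 53 genes of that table reached such a low Wald statistic. Under siRNA CCL2 stood at implied means of 654.9 and 806.1, and the authors' deposited table placed it at 0.30 (SE 0.27), not past the threshold (adjusted p-value 0.794).

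**Figure D2:**
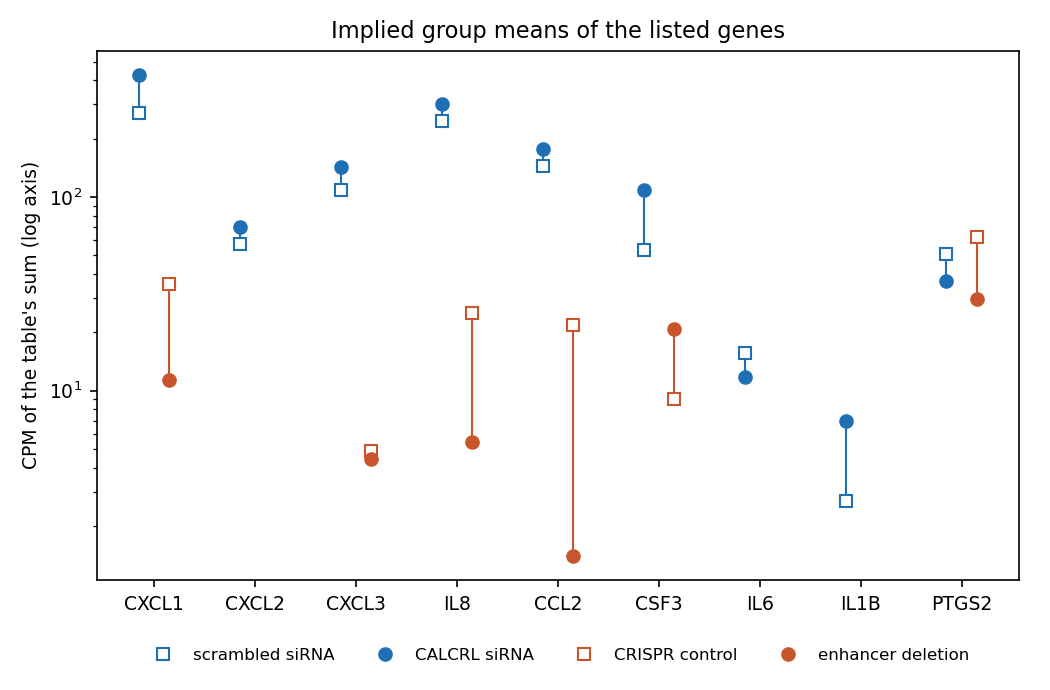
Implied group means of the listed genes, in CPM of each table's sum (log axis), with open squares for controls and filled circles for treated groups. Lines join the 2 groups of an arm, which can be compared with each other, whereas the arms were normalised separately. CCL2 has the longest line, from 21.9 in the CRISPR control to 1.4 after the deletion, and PTGS2 is the gene whose lines fall in both arms.

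CSF3, the growth factor that drives neutrophil production, was the member with the strongest statistic under siRNA. Its implied mean was 240.4 in scrambled cells and 497.7 in CALCRL siRNA cells. In the authors' deposited table CSF3 had a log2 fold change of 1.05 (SE 0.16) and a DESeq2 adjusted p-value of 7.15e-09, or 2.07 times the control (interval 1.67 to 2.56). The Wald statistic of CSF3 was the fifth highest of the 11261 genes. After the deletion the implied means were 46.6 in the control and 107.0 in deleted cells. The authors' deposited table gave a similar value there, 1.20, with a larger error (SE 0.62) and a DESeq2 adjusted p-value of 0.171, so it did not pass. Of the 6 genes in both tables, CSF3 alone had a deposited value above 0 in both. With the GC trend removed, CSF3 stood at 0.76 after the deletion. CXCL3 was then also above 0 in both, at 0.42 under siRNA and 0.10 after the deletion.

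IL1B, the gene of interleukin-1 beta, had the largest log2 fold change of the set under siRNA and the lowest level. Its implied mean was 12.2 normalised counts in scrambled cells and 31.8 in CALCRL siRNA cells. The authors' deposited table gave IL1B 1.38 (SE 0.25) and a DESeq2 adjusted p-value of 8.12e-06, which is 2.6 times the control (interval 1.84 to 3.67). IL1A, the neighbouring gene on chromosome 2, was listed in both authors' deposited tables at 0.37 (SE 0.21) under siRNA and -2.16 (SE 1.40) after the deletion, neither past the threshold.

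IL6 had implied means of 71.2 in scrambled cells and 53.7 in CALCRL siRNA cells. The authors' deposited table gave IL6 -0.41 (SE 0.31), which did not pass the test, with a 95% interval from 49.5% to 115% of the control. Exons of IL6 overlap those of STEAP1B and AC073072.1 on the opposite strand in GENCODE release 29. Of 415 windows of the read length in the last 500 bases of IL6, 0 occur in a transcript of another gene. Whether counting used the strand is not given in the sources used here. The value of IL6 is therefore uncertain as far as reads came from outside that stretch.

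PTGS2 was the only member called lower under siRNA. Its implied mean was 230.0 in scrambled and 167.1 in CALCRL siRNA cells. The authors' deposited table gave PTGS2 -0.46 (SE 0.15) with a DESeq2 adjusted p-value of 0.0457, or 72.7% of the control (interval 59.7% to 88.5%). This call sat at the threshold and was lost when the GC trend was removed (adjusted p-value 0.0638) or the statistics were divided by their robust SD (0.126). After the deletion the implied means were 320.9 and 153.2. The authors' deposited table placed PTGS2 there at -1.07 (SE 0.46), with an unadjusted p-value of 0.019 and a DESeq2 adjusted p-value of 0.0882, which did not pass.

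The levels of the set ordered the genes alike in the 2 groups of the siRNA arm for the most abundant members, in the order CXCL1, IL8, CCL2 and CXCL3, with IL1B last in both. Libraries of this kind count fragments from the transcript's 3′ end, so normalised counts were compared between genes without dividing by length. In the deletion arm PTGS2 was the most abundant of the 6 in both groups and CXCL1 was second in the control. Which neighbours in these orders differ beyond their spread cannot be told, because no value per library was used.

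The difference between the 2 comparisons was tested for the 6 genes in both tables, as a z test on the deposited values and errors, adjusted by Benjamini-Hochberg over 10891 genes. It passed for 3 of the 6, all higher under siRNA than after the deletion, where 13.7% of all genes passed. For CCL2 the siRNA value exceeded the deletion value by 4.27 (SE 0.77, adjusted p-value 1.84e-05), for IL8 by 2.49 (SE 0.60, adjusted p-value 0.0019) and for CXCL1 by 2.29 (SE 0.44, adjusted p-value 5.27e-05). None of the 3 passed under a Student t reference or after division by the robust SD, although all 3 kept an unadjusted p under 0.05. Of all 10891 genes 0 passed in either setting, and 1869 and 447 kept such a p.

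For the other 3 genes the difference did not pass, which does not show that the comparisons acted alike on them. The interval of the difference was -1.40 to 1.09 for CSF3, -0.94 to 2.05 for CXCL3 and -0.33 to 1.54 for PTGS2. The wide interval of CXCL3 overlaps that of CXCL1, 1.43 to 3.15, and the difference between these relatives was not tested. The arms also differ in delivery, time and control guide or siRNA, and these cannot be told apart from the difference itself.

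**Figure D3:**
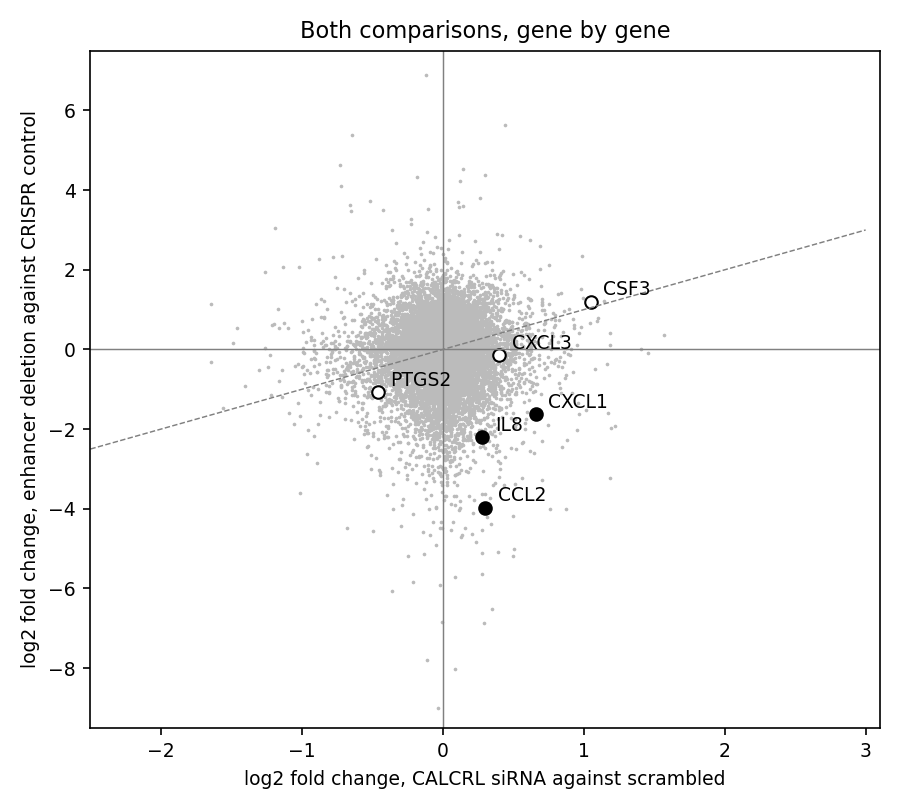
Log2 fold change in the siRNA comparison (x axis) against the deletion comparison (y axis), for all genes in both tables (grey) and the 6 members in both (black circles, filled where the difference between the arms passed). CCL2, IL8 and CXCL1 lie to the right of 0 and well below it, away from the dashed line of equal values, and CSF3 lies close to that line.

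The precision of the members differed by gene and arm. The median SE of the log2 fold change was 0.169 for siRNA and 0.409 for the deletion. For siRNA the SE of IL8, CCL2 and CXCL1 was 2.76, 2.49 and 1.72 times the median of genes with a similar mean count, followed by 1.48 for IL6, 1.29 for CSF3, 1.07 for CXCL3, 1.04 for PTGS2, 0.92 for CXCL2 and 0.77 for IL1B. The 3 genes with the highest ratios were the 3 called lower after the deletion, where IL6, next in order, was not listed. Among the 10891 genes listed in both tables, 214 had a siRNA ratio over 2, and 67.3% of them were called lower after the deletion, with a median log2 fold change of -2.01. Of the 285 genes with a ratio from 1.5 to 2, 42.1% were called lower, against 6.8% of the 10392 genes at or under 1.5. CCL2 and IL8 belong to the first of these groups and CXCL1 to the second, and the part of this pattern in their change was not tested.

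**Figure D4:**
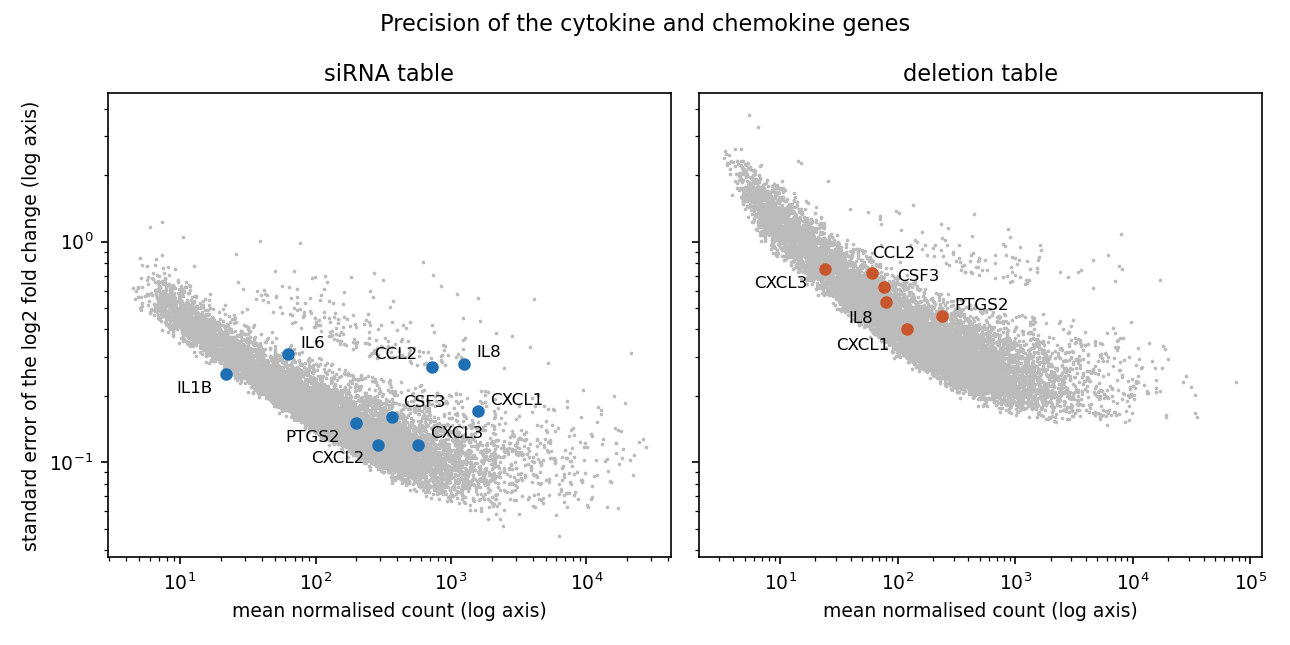
Standard error of the log2 fold change against mean normalised count (both log axes) for all genes (grey) and the members (coloured), in the siRNA table (left) and the deletion table (right). IL8 and CCL2 sit above the main band of the siRNA table, while the 6 members in the right panel lie within or near its band.

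The members share features of the 3′ UTR that the choice of genes did not use. In GENCODE release 29, taking for each gene the coding transcript with the longest 3′ UTR, all 10 carry the AU-rich pentamer ATTTA, against 74.83% of 10899 genes in the tables. At least 3 copies were found in 9 of the 10, CCL2 being the exception with 1, against 48.55% of all genes. The longer word TTATTTATT was found in 7 of the 10 (not in CCL2, CSF3 or IL6), against 9.65% of all genes. The median density of ATTTA was 8.392 per 1000 bases over the members and 1.746 over all genes, and it was lowest in CCL2 (2.114) and highest in IL6 (13.986). CCL2 had the fewest such words, and CXCL2 had 10 copies of ATTTA and 5 of TTATTTATT. The part of these words in the changes of either comparison was not tested. None of the 10 carries GTAACAA, a word chosen after the values had been seen, which was found in 10.23% of all genes and in 155 (58.3%) of the 266 genes called lower under siRNA that have a 3′ UTR in this annotation. No window of 86 bases, the read length, in the last 500 bases of CXCL1, CXCL2 or CXCL3 occurs in a transcript of another gene, so reads from that stretch of the 3 relatives can be told apart.

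Other chemokine genes were mostly low or not listed. Of 20, 6 were listed for siRNA and 2 for the deletion. Of all genes tested, 3.46% were called under siRNA and 15.8% after the deletion. Under siRNA no gene of this list was called. After the deletion CKLF, a chemokine-like factor, was lower in the authors' deposited table at -2.04 (SE 0.40, DESeq2 adjusted p-value 3.86e-05). Of 12 chemokine receptor genes, CCRL2 alone was listed, uncalled in both, and of 4 receptor genes for colony-stimulating factors CSF2RB alone, also uncalled in both.

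Of 22 other cytokine and growth factor genes, 11 were listed under siRNA with none called. After the deletion 8 were listed with 2 called lower, where 8.44% of all genes were called lower. The 2 genes were KITLG, the ligand of the KIT receptor, at -1.53 (SE 0.33), and MIF, macrophage migration inhibitory factor, at -2.02 (SE 0.67), both by the authors' deposited table.

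Among 14 receptor and signalling genes of the IL-6 family, which LIF and IL6 act through, all 14 were listed under siRNA and none was called. After the deletion 13 were listed, with 1 called higher and 3 lower, where 15.8% of all genes were called. SOCS3, a feedback inhibitor that cytokines induce through STAT3, fell from an implied mean of 96.5 to 3.36. The authors' deposited table gave SOCS3 -4.85 (SE 0.91) with a DESeq2 adjusted p-value of 1.92e-05. OSMR, the oncostatin M receptor, was lower at -1.87 (SE 0.57), and IL6ST, the shared receptor chain gp130, at -0.48 (SE 0.16) in the same authors' deposited table. STAT3, the transcription factor of the pathway, was higher at 1.15 (SE 0.35) in the authors' deposited table. The siRNA SE of SOCS3 was 3.29 times that of genes with a similar mean, the same pattern as for IL8 and CCL2.

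Of 19 receptor and signalling genes of the IL-1 family, 15 were listed in each table. Of all genes, 3.46% were called under siRNA and 15.8% after the deletion. Under siRNA MAP3K7, the kinase TAK1, was called lower in the authors' deposited table at -0.56 (SE 0.15, DESeq2 adjusted p-value 0.00832). After the deletion MYD88, the adaptor of the interleukin-1 receptor, was lower at -2.92 (SE 0.71) and the kinase gene IRAK4 at -1.14 (SE 0.34), while IRAK1 was higher at 1.39 (SE 0.32), in the authors' deposited table.

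Beside PTGS2, 13 of 19 genes for prostanoid synthesis and receptors were listed under siRNA with none called. After the deletion 12 were listed with 1 called, where 15.8% of all genes were called. PTGER4, a prostaglandin E2 receptor that signals through cyclic AMP, was lower at -1.98 (SE 0.44, DESeq2 adjusted p-value 0.000478) by the authors' deposited table. PLA2G4A, the gene next to PTGS2 on chromosome 1 and the phospholipase that frees arachidonic acid, stood at -0.60 (SE 0.26) under siRNA and -1.32 (SE 0.59) after the deletion by the authors' deposited tables, neither past the threshold.

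Among 15 regulators of AU-rich messenger decay, 15 were listed under siRNA and 14 after the deletion. Of all genes, 3.46% were called under siRNA and 15.8% after the deletion. ZFP36L2, which binds such elements, was called lower under siRNA at -0.66 (SE 0.18) in the authors' deposited table. Its 3′ UTR holds 1 copy of GTAACAA, the word frequent among genes called lower under siRNA. MAP3K7, BIRC3 and EGFL7, also called lower there, hold 0 copies. HNRNPD, of the same decay list, also holds 1 copy and was not called under siRNA, at -0.07 (SE 0.08) in the authors' deposited table. In the other lists KITLG, LIFR, PTPN11, TSLP and SLCO2A1 carry the word, and none of them was called under siRNA. The part of this word in the fall of ZFP36L2 was not tested. After the deletion ZFP36L1, its relative, was lower at -1.13 (SE 0.36) and KHSRP, another decay factor, was higher at 1.17 (SE 0.26) in the authors' deposited table. PAN2, a deadenylase subunit, was called lower, but its implied mean after the deletion was under 3 normalised counts, so only the upper end of its interval is given, 21.1% of the control.

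Of 22 NF-kB genes and other regulators and targets of the response, 20 were listed under siRNA, and BIRC3 alone was called, lower at -0.82 (SE 0.10, DESeq2 adjusted p-value 9.15e-13) by the authors' deposited table. Of 18 listed after the deletion, 3 were called higher and 4 lower, against 7.4% and 8.44% of all genes. NFKBIA, the NF-kB inhibitor and target, was lower at -1.98 (SE 0.47), as were CEBPB at -2.19 (SE 0.57), CEBPD at -1.09 (SE 0.39) and the kinase gene CHUK at -1.40 (SE 0.43) in the authors' deposited table. The subunit gene RELA at 1.02 (SE 0.33), TNIP1 at 1.13 (SE 0.32) and NFKBIB at 0.95 (SE 0.29) were higher in the authors' deposited table. ICAM1, an adhesion gene, did not pass in either table, with 0.11 (SE 0.09) under siRNA and -0.37 (SE 0.64) after the deletion by the authors' deposited tables.

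**Figure D5:**
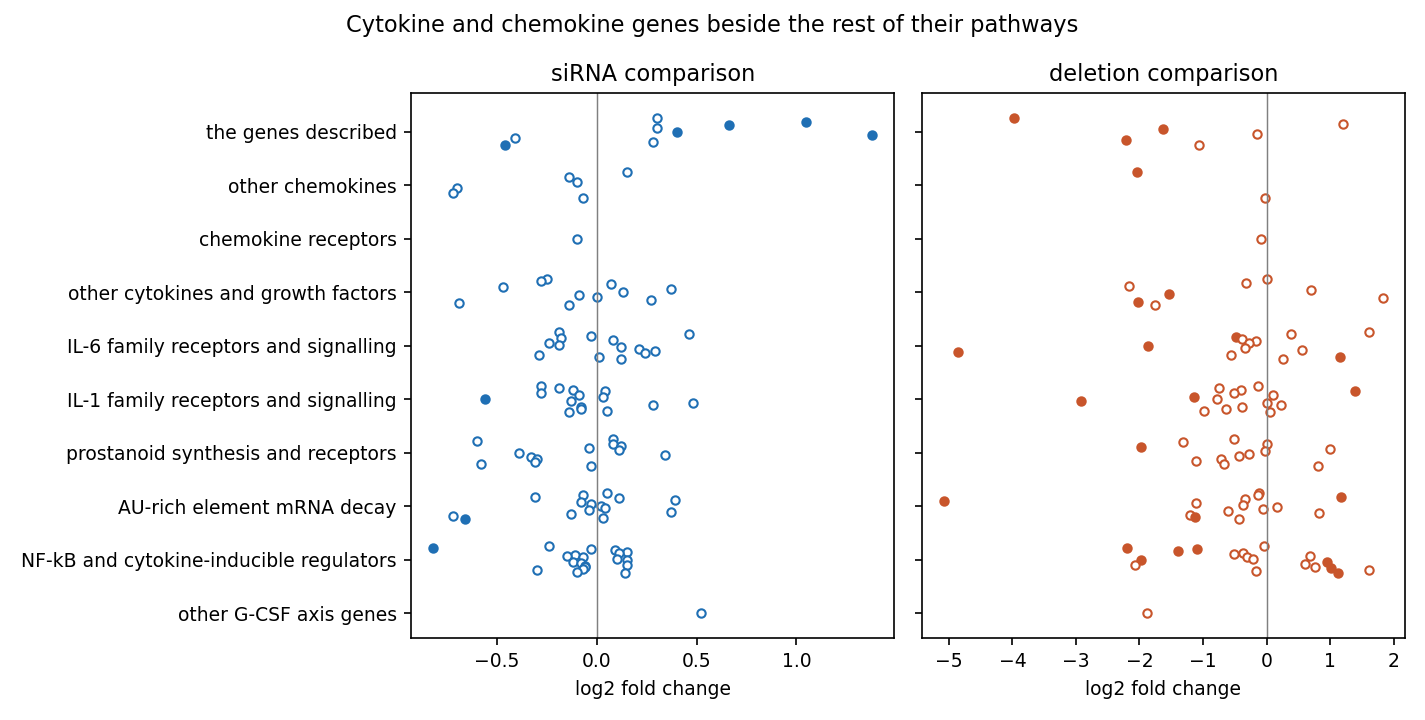
Log2 fold changes (x axis; the panels have different scales) of the genes described and of the other genes of their pathways, by list, in the siRNA comparison (left) and the deletion comparison (right). Each point is a gene, filled where its adjusted p-value is under 0.05, and points are spread vertically for legibility. In the siRNA panel 4 of the genes described are filled to the right of 0, where no gene of the other lists is.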

How the data were processed

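Bulk RNA of 14 teloHAEC libraries was sequenced as single-end reads of 86 cycles from a 3′ mRNA kit (QuantSeq FWD), per the labels' protocols. The authors counted reads with featureCounts and compared groups with DESeq2, per the file names. The deposited tables hold a mean normalised count (a signal), a log2 fold change and SE, a Wald statistic (a score) and p-values per gene, with decimal commas. The submitters' processing notes also name hg19 and edgeR 3.24.3, with no role given. The aligner, annotation, filters and strand setting are not given in the sources used here.

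Recomputing Benjamini-Hochberg values from the p-values gave the deposited adjusted ones. Depth per library is unknown; the mean normalised counts summed to 4547165 (siRNA) and 5153709 (deletion), and 5 genes of the deletion table had no p-value. From the deposited values, 95% intervals, implied group means (equal group sizes), differences between arms and alternatives were computed (Python 3.11.15, scipy 1.17.1, statsmodels 0.14.6). The difference test was run on simulated normal values with the deposited SEs, which cannot show whether those SEs fit these data. SE ratios use the running median of 201 genes by mean count. The GC trend was fitted with a lowess span of 0.3 over the last 500 transcript bases, for 98.6% and 98.3% of genes. Alternatives were a Student t reference, division by the robust SD, subtraction of the median, removal of the GC trend and a minimum mean of 10.

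Members, lists and tests were chosen with earlier results of these data known. Named genes were the members, every gene of the 9 pathway lists and the marker lists called in either arm, and the 3 genes nearest to a member called in both. IL1A, PLA2G4A and ICAM1 were added after their values were seen, as were HNRNPD, LIFR, PTPN11, TSLP and SLCO2A1 for carrying GTAACAA. Promoters came from RefSeq (GRCh38.p14), matched for 7 of the 10 members (all but CCL2, CSF3 and LIF), and 3′ UTRs from GENCODE release 29, which may not be the authors' annotation.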

Additional observations from a re-analysis of the deposited data

Results flagged for a closer look

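The effects of the 2 comparisons differed past the threshold in 3 of the 6 members tested, by the direct test of the difference described above. Of all 10891 genes 13.7% passed that test. None of the 3 passed under a Student t reference or after division by the robust SD. The siRNA log2 fold change minus that of the deletion was 2.29 for CXCL1, 2.49 for IL8 and 4.27 for CCL2. Delivery, time after treatment and control differ between the arms and cannot be told apart from these differences.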

How the results depend on the processing

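Under a Student t reference, 0 members were called under siRNA, 0 after the deletion and 0 for the difference between the arms. There 6, 3 and 3 had an unadjusted p-value under 0.05, as did 774 of 11261, 1646 of 11830 and 1869 of 10891 genes. After division by the robust SD the member counts were 3, 0 and 0. Again 6, 3 and 3 had an unadjusted p-value under 0.05, as did 1076, 534 and 447 of all genes. The robust SD of the deposited statistics was 1.107 under siRNA and 1.876 after the deletion. Both settings raise every p-value of each arm, so the losses there follow from the settings. Why the statistics spread that widely was not tested. Over all genes the t reference left 5 calls under siRNA (1 higher, 4 lower, from 118 and 272) and 0 of 1874 after the deletion. The robust SD left 262 under siRNA and 0 after the deletion. Both left 0 of 1493 for the difference. With the GC trend removed, CXCL3 after the deletion turned from -0.15 to 0.10 and the difference of CSF3 from -0.15 to 0.27, neither past the threshold before or after. Of 105 values of single members under the 5 alternatives, 83 kept their direction and side of the threshold, 20 lost the threshold and 2 reversed. No paired analysis was possible because single libraries have no value here. The replicate block and leaving out each replicate were not run for the same reason. Depth per library is unknown, so what depth limits could not be assessed.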

Other observations

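The control groups of the 2 arms stood at different levels of these genes, relative to the sum of each table. Implied control levels in CPM were 270.0 in scrambled siRNA cells and 35.3 in CRISPR control cells for CXCL1, 108.0 and 4.89 for CXCL3, and 248.0 and 25.2 for IL8. They were 144.0 and 21.9 for CCL2 and 52.9 and 9.03 for CSF3. The ratio of scrambled to CRISPR control was thus 7.64 for CXCL1, 22.1 for CXCL3, 9.82 for IL8, 6.57 for CCL2 and 5.85 for CSF3, and 0.812 for PTGS2. Over the 10891 genes in both tables its median was 1.02, and 90% of genes lay between 0.577 and 2.31. The 5 chemokine and CSF3 values each exceeded those of over 99% of genes. The tables were normalised separately and no error can be given, so these ratios are values with no test. CXCL2, IL6 and IL1B, listed for siRNA alone, have no value here for the deletion arm.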
